A study of Mus musculus with 2 samples.

Results

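The regions described here are the accessible sites of early-stage mouse prostate tumor cells that were not listed as accessible at the late stage. They were chosen by position alone: a peak of the 2-week library (W2) on chromosomes 1 to 19, X and Y was taken when it had no base in common with any peak of the 6-month library (M6). Of 5735 W2 peaks, 1117 met this rule (19.5%, exact binomial 95% interval 18.5 to 20.5%), and the other 4618 are called shared. The M6 list held 22570 peaks. Against as many of its strongest peaks as W2 had, 2765 W2 peaks had no counterpart. With the whole M6 list and only W2 peaks of −log10 q 5 or more, 595 had none. Accessibility was measured by ATAC-seq, which uses a transposase to tag DNA that is not packed away, and a peak is a stretch where inserted tags pile up above the local background. Both libraries came from C57BL/6 prostate tumor cells of a series on progression to neuroendocrine prostate cancer (NEPC), and both were treated with tamoxifen, for 2 weeks in W2 and 6 months in M6. The sources used here do not give the genotype of the cells, an untreated group or the number of animals. Each stage had 1 library, so no difference has a replicate check, no p-value is given, and the intervals cover counting error only.

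Open sites fall into promoters, which lie at gene starts, and distal elements such as enhancers, which lie inside or between genes and differ more between cell types. Luminal prostate epithelium depends on the androgen receptor and on FOXA1, a forkhead factor that opens chromatin for it. In NEPC, luminal genes are known to give way to genes of nerve and secretory cells. AP-1, a dimer of FOS and JUN proteins, binds many promoters and enhancers of epithelial and stress-responsive genes.

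The promoters of 4 genes show early-only peaks over an AP-1 motif, a feature of a minority: 17 of the 127 promoter windows under these peaks held it, and 179 of the 1117 peaks lay at gene ends. Each stretch below is the part of the 250 bases before the gene's annotated start that the W2 peak covered. The sequences come from RefSeq (build GRCm38.p6, the assembly behind mm10), are written 5′ to 3′ on the gene's strand, and carry in capitals every match to the AP-1 motif TGANTCA. The 4 were picked after their values were seen, for carrying that motif. Other motifs, given below, were also found more often in promoter windows under early-only peaks than under shared ones. Gpr39 encodes a zinc-sensing receptor (chr1:125676779-125676995, plus strand), Fbp2 a fructose-bisphosphatase (chr13:62858401-62858650, minus strand), Sprr1a a cornified-envelope protein of stratified epithelia (chr3:92485882-92486104, minus strand) and Serpinb5 the epithelial serpin maspin (chr1:106860960-106861174, plus strand).
Gpr39: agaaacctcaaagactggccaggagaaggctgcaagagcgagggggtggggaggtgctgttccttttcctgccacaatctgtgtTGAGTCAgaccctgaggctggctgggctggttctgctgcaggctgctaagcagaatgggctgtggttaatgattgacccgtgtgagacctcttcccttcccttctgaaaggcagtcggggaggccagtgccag
Fbp2: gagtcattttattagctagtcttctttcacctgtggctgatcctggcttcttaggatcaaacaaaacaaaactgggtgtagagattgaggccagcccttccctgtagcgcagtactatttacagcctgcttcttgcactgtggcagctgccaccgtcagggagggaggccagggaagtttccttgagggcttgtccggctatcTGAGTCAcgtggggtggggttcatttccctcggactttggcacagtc
Sprr1a: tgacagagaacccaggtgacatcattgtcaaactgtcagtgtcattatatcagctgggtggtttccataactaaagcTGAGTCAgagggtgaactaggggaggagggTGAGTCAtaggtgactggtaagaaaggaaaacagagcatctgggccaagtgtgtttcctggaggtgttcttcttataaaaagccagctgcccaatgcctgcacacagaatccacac
Serpinb5: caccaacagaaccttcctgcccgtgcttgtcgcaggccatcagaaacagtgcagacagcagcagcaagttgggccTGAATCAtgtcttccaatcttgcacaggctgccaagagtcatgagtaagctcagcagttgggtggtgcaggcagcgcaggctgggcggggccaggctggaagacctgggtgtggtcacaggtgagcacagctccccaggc

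At Gpr39 W2 had a pileup (tags stacked at the peak's summit) of 30 tags, and the nearest M6 peak lay 7.23 kb away. The Fbp2 peak held 26 tags in W2, with an M6 peak 1.67 kb away. The Sprr1a peak held 18 tags and the Serpinb5 peak 17 tags, and the nearest M6 peaks lay 368 kb and 64.1 kb away, respectively. The lowest pileup of any M6 peak was 10 tags, and M6 peaks at the lowest background had a median of 16 tags. The 10 tags are the minimum of the list and not a limit for each site. A region without an M6 peak may still have carried tags, and how many is not known.

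The early-only peaks were narrower and lower than the shared ones. Their width ran from 200 to 758 bp with a median of 245 bp, against 301 bp for shared W2 peaks, and 180 of them (16.1%) had the smallest width in the list, 200 bp, against 5.89% of the shared peaks. Their pileup ran from 12 to 91 tags with a median of 19, against 21 for shared peaks. At least 20 tags were reached by 451 of them (40.4%) and by 66.3% of the shared peaks, and at least 30 tags by 18 (1.61%) and by 11.2%. The fold over local background that the authors deposited had a median of 4.51 against 4.95, and the −log10 q a median of 5.21 against 6.77. The lowest local background of any peak was 2.96 tags for W2 and 2.65 tags for M6. The highest pileup, 91 tags inside Sfi1 (chr11:3198118-3198456), stood on a background of 45.9 tags and had a fold of only 1.96; the nearest M6 peak, 561 bp away, held 59 tags.

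**Figure D1:**
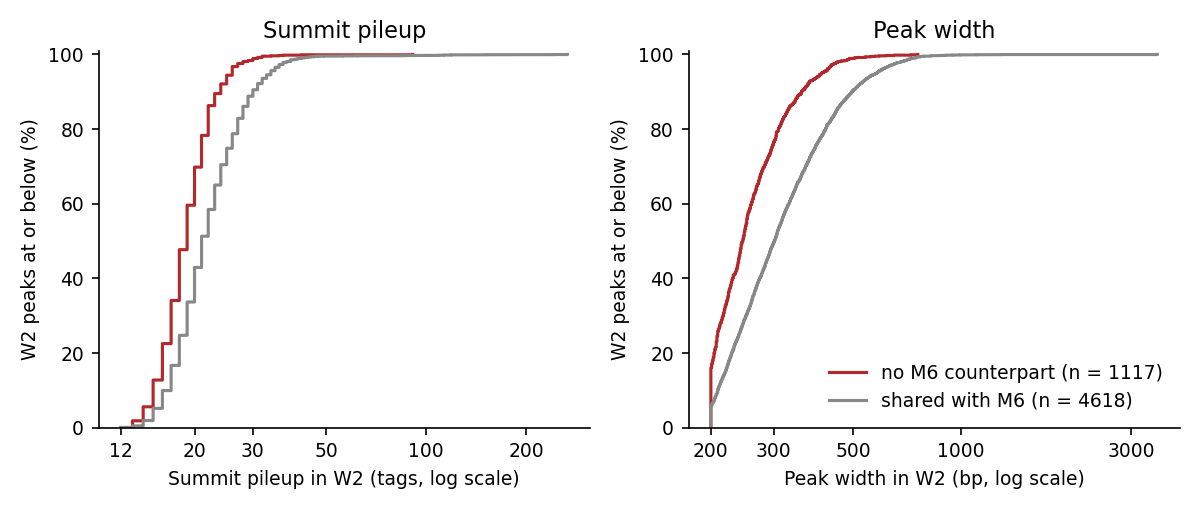
Cumulative share of W2 peaks (vertical axes, percent) at or below a summit pileup (left, tags, log axis) and a width (right, bp, log axis), for the 1117 peaks without an M6 counterpart and the 4618 shared ones. The line of the peaks without counterpart lies to the left in both panels, with medians of 19 against 21 tags and 245 against 301 bp.

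Most early-only peaks lay away from gene ends. Up to 1 kb from either end of protein-coding genes lay 179 (16.0%, 13.9 to 18.3%), inside genes 460 (41.2%, 38.3 to 44.1%) and outside genes 478 (42.8%, 39.9 to 45.8%). Among the shared W2 peaks these shares were 71.0%, 17.9% and 11.1%. Put the other way, 5.17% of W2 gene-end peaks, 35.8% of W2 peaks inside genes and 48.3% of those outside genes had no M6 counterpart, against 19.5% of W2 peaks of every kind. The same order of the 3 classes was found within each of 4 equal parts of the W2 list by −log10 q. In the weakest part 10.1% of gene-end, 46.1% of inside and 58.4% of outside peaks had no counterpart. In the strongest part the shares were 1.02%, 18.1% and 26.7%, with exact intervals of 0.508 to 1.81%, 13.2 to 24.0% and 19.4 to 35.0%. The intervals of inside and outside peaks overlapped in the strongest part and in no other.

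**Figure D2:**
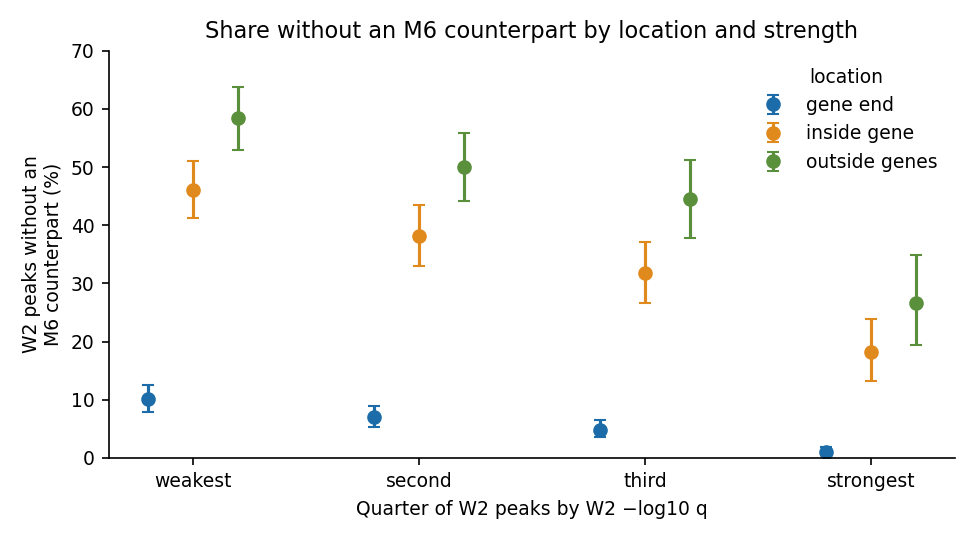
Share of W2 peaks without an M6 counterpart (vertical axis, percent) by part of the W2 list, cut into 4 by −log10 q (horizontal axis) and location; bars are exact binomial 95% intervals. Gene-end peaks are lowest in all 4 parts, from 10.1% to 1.02%, and peaks outside genes highest, from 58.4% to 26.7%.

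The gene-end peaks among them were less often at a gene's start than shared gene-end peaks. RefSeq starts were at hand for 17492 of 21887 protein-coding genes and for none on chromosome 18. On the other chromosomes, 125 of 177 early-only gene-end peaks (70.6%, 63.3 to 77.2%) lay within 1 kb of a start, against 85.3% (84.0 to 86.5%) of the shared ones. The 478 peaks outside genes lay 1.01 kb to 1535 kb from the nearest protein-coding gene, with a median of 23.7 kb against 21.9 kb for shared peaks outside genes, and 117 of them overlapped an annotated gene of another kind, such as a non-coding RNA.

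Most early-only peaks had no other such peak close by. They had 1021 different nearest genes, and 47 (4.21%) had another early-only peak within 10 kb. A shared W2 peak lay within 10 kb of 90 (8.06%). What random spacing would give was not computed. The largest group held 3 peaks, at AA986860 and Fcamr on chromosome 1. On chromosomes 1 to 19 between 15.5% (chromosome 5) and 24.2% (chromosome 6) of W2 peaks had no counterpart. On X it was 1 of 39 (2.56%, 0.0649 to 13.5%) and on Y 1 of 4.

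Few of these peaks lay within 1 kb of a late peak, though the share for randomly placed sites was not computed. The gap to the nearest M6 peak had a median of 19.5 kb and ran from touching to 852 kb. Against the 5735 strongest M6 peaks, the median gap of the 1117 was 91.7 kb. It was at most 200 bp for 30 peaks (2.69%), at most 1 kb for 90 (8.06%) and over 100 kb for 139 (12.4%). Gene-end peaks had an M6 peak within 1 kb in 32 of 179 cases (17.9%, 12.6 to 24.3%), against 6.74% of those inside and 5.65% of those outside genes. The median W2 pileup was 18.5 tags up to 200 bp and 19 tags beyond 100 kb.

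The rule's edge runs through sites that both libraries held close together. Just inside it, a W2 peak in Nectin1, an adhesion gene, touched an M6 peak without sharing a base (15 tags in W2 and 21 tags in the M6 neighbour). Gaps of 12 to 22 bp were found near Ube2g1 and Tuba1a, at Cdc42ep4 and in Esr1, the estrogen receptor gene. Just outside it, W2 peaks in Mtmr12, near Gch1, at Ttc17, in Eif4g3 and at Cep192 overlapped an M6 peak by 11 to 31 bp. At the far end, the widest gaps were 852 kb near Ceacam12 (23 tags in W2), 840 kb in Gm8094 (13 tags), 803 kb near S100a11 (22 tags), 698 kb near Atp10b (20 tags) and 651 kb at Gm51464 (16 tags).

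**Figure D3:**
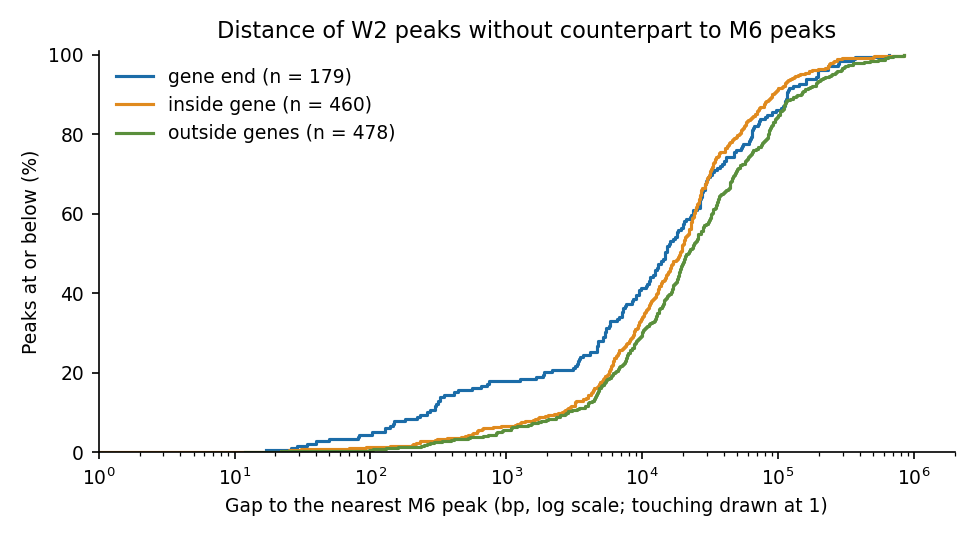
Cumulative share of the W2 peaks without counterpart (vertical axis, percent) by the gap to the nearest M6 peak (horizontal axis, bp, log scale), for 179 peaks at gene ends, 460 inside and 478 outside genes. The gene-end line is higher at short gaps, reaching 17.9% at 1 kb against 6.74% and 5.65%.

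Among the 20 strongest early-only peaks by −log10 q, 4 lay at gene ends, 9 inside genes and 7 outside genes, and 4 had an M6 peak within 1 kb. The strongest, upstream of Spag9, which encodes a JNK scaffold protein, held 42 tags in W2 at chr11:93995149-93995457, and an M6 peak of 17 tags began 139 bp from its edge. Their deposited folds were 8.74 in W2 and 3.24 in the M6 neighbour. At Isg20, an interferon-induced exonuclease gene, 34 W2 tags stood 103 bp from 26 M6 tags, and in Atxn1, the ataxin-1 gene, 29 W2 tags stood 93 bp from 30 M6 tags. The Sbno1 site (26 tags) was 215 bp from an M6 peak of 22 tags. At these 4 sites both libraries had a peak within 215 bp of each other.

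The other 16 of the 20 had no M6 peak within 1 kb. Those inside genes were in Rgs7, a regulator of G protein signaling (31 tags, chr1:175454092-175454400, 23.8 kb from an M6 peak), Celf4, a neuronal RNA-binding protein (32 tags, 5.84 kb), Dagla, an enzyme of endocannabinoid synthesis (37 tags, 8.31 kb), Patj, a tight junction polarity protein (30 tags, 68.2 kb), and in Anks1, Plekha5 and Tcte2 (28 to 29 tags). Those outside genes were nearest to Rasa1, a Ras GTPase-activating protein (30 tags, 31.7 kb from an M6 peak), Pfkfb3, a regulator of glycolysis (31 tags, 28.0 kb), Parp11 (32 tags, 220 kb), Rtn4, Rasgrf1, Rbpms and Gm39469 (26 to 29 tags). The remaining ones were at the ends of Gpr39 and of Ptk2b, a focal adhesion kinase relative (30 tags, 22.9 kb from an M6 peak). All 20 lay between 26 and 42 tags in W2.

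Gene-end sites without an M6 counterpart touched 198 protein-coding genes. Of these, 59 (29.8%, 23.5 to 36.7%) still had an M6 peak within 1 kb of one of their ends, and 73 (36.9%, 30.1 to 44.0%) had no M6 peak at all in the gene with 10 kb on either side, called its locus here. Over all protein-coding genes, 12940 of 21887 (59.1%) had an M6 peak in the locus, so lacking one was not particular to these 198. The 15 strongest early-only gene-end peaks included those at Spag9, Isg20, Gpr39 and Ptk2b described above. Rela, the p65 subunit of NF-κB, had 24 W2 tags at its start (chr19:5637286-5637569), with the nearest M6 peak 11.3 kb away. Sox4, a SOX factor, had 25 W2 tags (chr13:28953708-28953948) and an M6 peak 5.66 kb away. Nfil3, a bZIP repressor, had 25 W2 tags (chr13:52981964-52982200), with an M6 peak 19.3 kb away, and Kdm2a, a histone demethylase, had 25 W2 tags with an M6 peak 18.2 kb away. M6 had 1 gene-end peak at Rela and 1 at Kdm2a, and 0 at Sox4 and Nfil3. At Zfp692 and Mysm1, a histone H2A deubiquitinase, the W2 peaks (24 tags each) lay 411 bp and 34 bp from an M6 peak, and the Mysm1 neighbour was the higher one, with 34 tags.

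Vasn, an inhibitor of TGF-beta, had 32 W2 tags over its start, 14.6 kb from an M6 peak, and Ptp4a2, a phosphatase gene, had 24 tags and a gap of 8.58 kb. Fbp2 and the histone gene H2bc13 (23 tags, 5.40 kb) were also among the 15. Histone genes were then counted as a class, a choice made after the values were seen. Of 62 replication-dependent histone genes, taken by symbol, 4 (H2bc13, H2ac13, H4c6 and H3c6, all on chromosome 13) had an early-only gene-end peak and no M6 gene-end peak (6.45%, 1.79 to 15.7%, against 0.905% of all protein-coding genes with an early-only gene-end peak), 19 had a shared W2 gene-end peak, and 34 had an M6 gene-end peak. The 4 genes rest on 3 peaks, since H2bc13 and H2ac13 share 1.

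Counted by locus, 921 of 21887 protein-coding genes had at least 1 early-only peak, which is 4.21% of all genes and 14.2% of the 6477 genes with any W2 peak in the locus. Long genes have larger loci: the median length was 34.3 kb for the 921 genes and 17.2 kb for all. In 619 of the 921 (67.2%) no shared W2 peak lay in the locus, in 213 (23.1%, 20.4 to 26.0%) there was no M6 peak, and in 300 (32.6%) M6 had more peaks than W2. Over all genes 59.1% had an M6 peak in the locus, so lacking one was less frequent among the 921. The highest −log10 q among the 213 without any M6 peak, named after their values were seen, belonged to Tlr4, the lipopolysaccharide receptor (26 tags, chr4:66828775-66829027), Il23r, a cytokine receptor (25 tags), Kat2b, an acetyltransferase (26 tags), and Atoh1, a proneural bHLH factor (25 tags, 1.01 kb from the gene).

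At 4 genes 3 early-only peaks fell in 1 locus. Sh3pxd2a, a scaffold of invadopodia, had 3 W2 peaks inside the gene with 20, 32 and 26 tags, no shared peak and 1 M6 peak of 19 tags, 100 kb from the nearest of them. Fhl2, a LIM-domain cofactor of the androgen receptor, had 3 with 15, 18 and 19 tags beside 1 shared peak and 2 M6 peaks. Macrod2 and Arhgap26 had 3 each beside 2 shared W2 peaks and 13 M6 peaks, and both are long genes, of 1998 and 775 kb.

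Luminal epithelial genes had an early-only peak at 5 of 33 loci, against 4.21% of all genes. Any W2 peak was found at 13 of the 33 and an M6 peak at 23, against 29.6% and 59.1% of all genes. Of all genes with a W2 peak, 14.2% had an early-only one. The gene lists were chosen with earlier results of these data known, so the luminal share is a description. The median length was 14.7 kb for the luminal list and 17.2 kb for all genes, and the bearing of length on the share was not tested. The 5 genes were Tspan1 (5.74 kb), Foxa1 (7.40 kb), Epcam (15.1 kb), Cdh1 (66.9 kb) and Tmprss2 (94.9 kb). At Foxa1 the only W2 peak within 10 kb held 21 tags (chr12:57546762-57547027), and the nearest M6 peak was 29.0 kb away. The W2 peak lay inside the Foxa1 gene, 650 bp from an annotated Foxa1 start. It was classed as a gene-end peak only through the neighbouring Ttc6, 58 bp from an end of that gene. Tmprss2, an androgen-regulated serine protease gene, had early-only peaks of 21 tags over an annotated start (chr16:97611087-97611356, 16.9 kb from an M6 peak) and of 19 tags (573 bp from an M6 peak), along with 2 shared W2 peaks of 17 and 16 tags that M6 held with 15 and 18 tags.

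Of the epithelial adhesion genes on the list, Cdh1 and Epcam had an early-only peak beside a shared gene-end peak. Cdh1, the E-cadherin gene, had 25 W2 tags inside the gene (chr8:106616001-106616274, 3.21 kb from an M6 peak), while its gene-end peak held 21 tags in W2 and 19 in M6. Epcam, an epithelial adhesion molecule, had 18 W2 tags 7.62 kb before its start, while its start held 17 tags in W2 and 25 in M6. Tspan1, a tetraspanin, had 18 W2 tags 31 bp from an M6 peak of 31 tags. The androgen receptor axis, a list of 21 genes that shares Foxa1 and Tmprss2 with the luminal one, had no further gene with such a peak. Of 20 basal genes 2 had one: Itga6, a laminin-binding integrin (23 tags, 3.85 kb from an M6 peak), and Krt6a, a keratin (15 tags, 198.7 kb from an M6 peak).

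**Figure D4:**
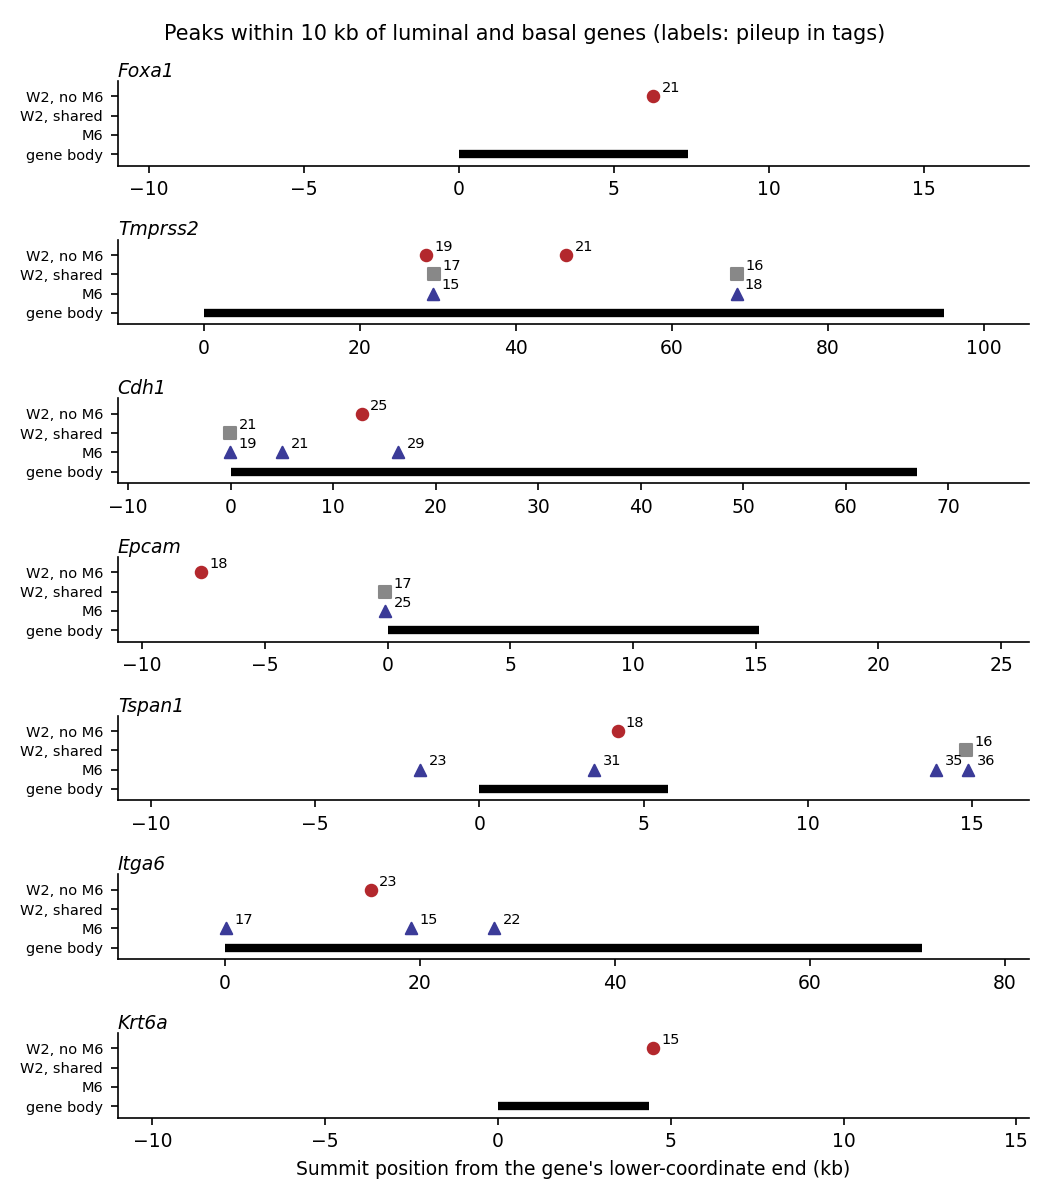
Peak summits around 5 luminal genes and 2 basal genes (Itga6, Krt6a) by position from the gene's lower-coordinate end (kb, horizontal axes), in rows for W2 peaks without M6 counterpart, shared W2 peaks and M6 peaks; labels give the pileup in tags and black bars the gene body. Foxa1 and Krt6a have a W2 peak and no M6 peak, and Cdh1 and Epcam have a shared peak at their lower end besides the W2-only one.

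Of 38 neuroendocrine genes 1 had an early-only peak, Celsr3, a neural adhesion receptor (25 tags, 6.97 kb from an M6 peak). An M6 peak was found at 25 of the 38 loci, against 12940 of 21887 (59.1%) over all genes. Early-only peaks were found at 3 of 37 synapse and channel genes (Rgs7, Celf4 and Dagla, which were put on the list with their peaks known). Of 35 genes of neural adhesion and guidance 4 had one (Slit3, 21 tags, Efna5, 13 tags, Negr1, 16 tags, and Ptprt, 19 and 17 tags). At all 8 loci M6 had peaks elsewhere, for example 8 each at Celf4 and Ptprt. M6 peaks were common on these lists, at 33 of 37 synapse and channel loci and 35 of 35 loci of neural adhesion and guidance. At 5 of the 8 (Celf4, Rgs7, Slit3, Negr1 and Ptprt) every W2 peak in the locus was early-only, against 67.2% of the 921 genes with an early-only peak. The genes of the last 2 lists are long, with median lengths of 434 kb and 966 kb.

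Lists of other cells and functions had 0 or 1 gene each. Smtn of 10 smooth muscle genes had 22 W2 tags at its start and no M6 peak in the locus. Fcgr3 of 22 leukocyte genes had 16 tags and no M6 peak, and Vwf of 15 endothelial genes had 18 tags beside 4 M6 peaks. Zfp36 of 24 immediate early and stress genes had 30 tags, 3.51 kb from an M6 peak of 33 tags, and Etv1 of 28 tumor suppressors and oncogenes had 17 tags. None of 16 fibroblast, 19 epithelial-mesenchymal transition, 26 cell cycle and 30 housekeeping genes had an early-only peak. Of the housekeeping loci 21 and of the cell cycle loci 12 had a W2 peak. The share over all genes was 4.21%, or 14.2% of genes with a W2 peak, and whether these lists differ from it was not tested. Among the markers of other cell types (smooth muscle, leukocyte, endothelial and fibroblast), 3 of 63 genes had an early-only peak. The part of these cell types in the other results was not tested.

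Sequence was at hand only before annotated gene starts. Of 21238 windows of 250 bp, 127 (at 117 genes) were touched by an early-only and no shared W2 peak. Their median GC content was 59.6% and they held a median of 13 CpG, against 62.4% and 18 CpG in the 3353 windows with a shared W2 peak and 55.6% and 10 CpG in all windows. The AP-1 motif TGANTCA was found in 17 of the 127 (13.4%, 7.995 to 20.6%), against 3.52% of windows with a shared W2 peak, 3.43% of 4144 windows with an M6 peak only, 7.54% of windows with no peak and 6.14% of all windows. In 15 of the 17 the match lay inside the W2 peak.

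The windows were then split by CpG count, a choice made after the values were seen. With up to 10 CpG, AP-1 was found in 13 of 48 windows with an early-only peak (27.1%, 15.3 to 41.8%), 17 of 398 with a shared W2 peak (4.27%, 2.51 to 6.75%) and 8.91% of all such windows. With over 10 CpG it was 4 of 79 (5.06%, 1.397 to 12.5%), 3.42% and 3.07%. The single early-only peak at H2bc13 and H2ac13 counted in both classes, as their windows held 11 and 10 CpG. The intervals treat windows as independent and make no allowance for such pairs. Besides the promoters printed above, the early-only windows with the motif were at Sdcbp2 (25 tags), H2bc13 and H2ac13, which share 1 peak, Sgms1, Fam110c, Timm22, Rab15, Rnh1, Emp1 (an epithelial membrane protein, 16 tags), Rnf186, Myl6b, 2610528J11Rik and Cyth1.

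In the order early-only, shared and all windows, the forkhead motif TGTTTAC was found in 4.72%, 1.46% and 2.61%, the E-box CAGCTG in 16.5%, 8.98% and 12.1%, the GATA motif AGATAA in 9.45%, 3.34% and 8.81%, and a CTCF core motif in 4.72%, 2.27% and 1.98%. The ETS motif CCGGAA was in 20.5%, 28.5% and 14.99%. For ETS the early-only interval, 13.8 to 28.5%, overlapped the shared one, 27.0 to 30.1%. The forkhead and CTCF intervals overlapped too, at 1.75 to 10.0% against 1.08 to 1.93% and 1.79 to 2.83%. Those of the E-box (10.5 to 24.2% against 8.03 to 9.996%) and GATA (4.98 to 15.9% against 2.76 to 4.01%) did not. A higher share than in shared windows was thus not particular to AP-1. Each of these early-only intervals held the share over all windows. In windows with up to 10 CpG the forkhead motif was in 6 of 48 early-only windows (12.5%, 4.73 to 25.2%). It was in 7 of 398 shared ones (1.76%, 0.710 to 3.59%) and in 0 of 79 early-only windows with over 10 CpG. The split was chosen after the values were seen, so no difference is read from these small counts. The palindromic androgen receptor and nuclear factor I motifs were found in none of the 127. Both strands were searched, matches of different motifs were counted separately where they shared bases, and a match is a description of the letters only.

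**Figure D5:**
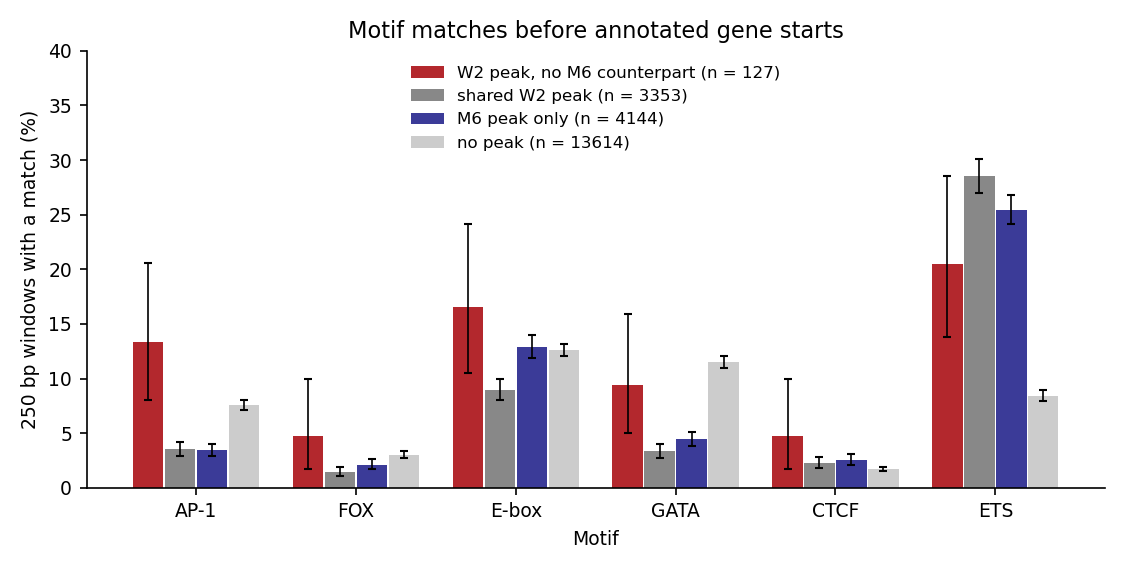
Share of 250 bp windows before annotated gene starts with a motif match (vertical axis, percent; horizontal axis, motif), for windows with an early-only W2 peak, a shared W2 peak, an M6 peak only or no peak; bars start at 0 and whiskers are exact binomial 95% intervals. AP-1 is at 13.4% in early-only windows against 3.52% in shared ones, and ETS is lower, at 20.5% against 28.5%. The forkhead, E-box, GATA and CTCF shares are also higher in early-only than in shared windows.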

How the data were processed

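ATAC-seq was measured in 1 W2 and 1 M6 library. The submitters' processing notes name build mm10, deepTools, SAMtools 1.4, Bowtie2 and Trim Galore 0.5.0, with no roles. Peak caller, threshold, duplicate handling and shift of read ends were not given in the sources used here. By library, the authors deposited 1 peak list each. The fold deposited by the authors is a linear ratio that equals (pileup + 1)/(background + 1), the −log10 p and −log10 q deposited by the authors are each peak's own, and the score they deposited equals 10 times the −log10 q to within 1 and was not used. The read depth is unknown.

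Whole-number pileups and backgrounds were recovered from fold and −log10 p under a Poisson model, within 0.001 for 100% of peaks in both libraries. Overlap and gaps were computed with Python 3.11.15 and checked against bedtools 2.31.1 on simulated data. Distances run from interval edge to interval edge. Genes and promoter windows came from RefSeq GRCm38.p6. Exons, UTRs and distal sequence were not analysed here. Named are the 20 strongest peaks, the 15 strongest at gene ends, genes with 3 or more peaks, the 5 farthest from and 5 nearest to M6 peaks, and the genes of 15 lists with a peak. The regions and lists were chosen with earlier results of these data known. A result that the naming rule picks is not reported here.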

Additional observations from a re-analysis of the deposited data

Results flagged for a closer look

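Among the W2 peaks on sequences other than chromosomes 1 to 19, X and Y, which entered no comparison, 11 of 30 overlapped no M6 peak (36.7%, 19.9 to 56.1%), against 19.5% of the W2 peaks on those chromosomes, a share just below that interval's lower bound. They are listed because they lie outside the main measurement.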

How the results depend on the processing

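The number of W2 peaks without an M6 counterpart, 1117, stayed within 1.5 times when a shared peak needed cover of at least 50% of the W2 peak (1193) or the summit inside an M6 peak (1197), when M6 peaks within 200 bp (1087) or 1 kb (1027) counted as shared, and with a −log10 q of at least 3 in W2 (1017) or M6 (1160). It was 595 of 4046 when W2 peaks needed a −log10 q of 5 or more, where fewer peaks enter. It was 2765 when M6 was held to its 5735 strongest peaks, and the median gap of the 1117 to those was 91.7 kb in place of 19.5 kb. The gene-end share of 16.0% was 20.6% with a window of 2 kb and 13.3% with one of 500 bp. Genes with such a peak numbered 921 with 10 kb flanks, 578 in gene bodies alone and 2138 with 50 kb. No paired analysis was possible because each stage had 1 library. The M6 list gives no level where it holds no peak, so the M6 level at these sites was not measured. That level may also lie above 10 tags, the lowest pileup in the M6 list.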
